A study of Mus musculus with 4 samples.

Results

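The mouse genes whose symbol is Zfp followed by a number encode zinc finger proteins, and 82 of them were the nearest gene of a glucocorticoid receptor (GR) peak in cells differentiated in culture from PDGFRa+ adipose progenitors. Members were all gene names of that form in the PDGFRa+ peak list, at any distance, or in the CD137+ gene table. They were 82 of the 6081 genes named in the PDGFRa+ list and held 160 of its 10402 peaks, on 18 chromosomes. The CD137+ table, with 30 genes, named 0 of them, so every value below comes from the PDGFRa+ immunoprecipitate.

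GR was immunoprecipitated from cells isolated by PDGFRa, a platelet-derived growth factor receptor that marks fat cell progenitors, and from cells isolated by CD137, a receptor of the tumour necrosis factor receptor family. The labels give C57BL/6 mice as the strain of both groups and adipose tissue as the source, isolated magnetically (MACS) from SAT or VAT, abbreviations the labels leave unexplained. Both were cultured, exposed to an adipogenic cocktail and, once differentiated, treated with 1 µM dexamethasone, a synthetic glucocorticoid, and no library without dexamethasone is described. The extraction protocol in the labels speaks of embryonic cells, which the adipose source does not match. Each of the 2 cell types had 1 immunoprecipitate and 1 input, with no replicate and no stated depth, so no test between groups was possible. Intervals on shares are 95% Wilson intervals and cover counting error only, and neighbouring peaks of a gene are not independent. Peak calls carry no expression level, so the cell type labels could not be checked against marker levels.

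Most Zfp proteins are of the C2H2 type, in which repeated fingers each read a few bases of DNA. Many also carry a KRAB domain, which binds the corepressor Trim28 and through it the histone methyltransferase Setdb1 and HP1 proteins, and silences transposable elements. KRAB zinc finger genes multiplied by tandem duplication and often stand in arrays of similar copies. Others are unrelated in function and share little beyond the symbol. Zfp423 and Zfp521 act in opposite directions on the fate of preadipocytes, and proteins of the Zfp36 family have fingers of the CCCH type that bind AU-rich messenger RNA and speed its decay.

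Zfp genes as a family were named by a peak about as often as other genes. A peak at any distance named 82 of 397 Zfp protein-coding genes of the RefSeq gene table (20.7%, interval 17.0 to 24.9), against 22.5% of all 21900 protein-coding genes. With peaks within 100 kb of the start site, 77 were named (19.4%, interval 15.8 to 23.6), against 19.8% of all genes. A peak within 3 kb named 19 (4.79%, interval 3.09 to 7.35), against 3.39%, and a peak with a score of 50 or more named 20 (5.04%, interval 3.28 to 7.65), against 2.59%. Counting peaks outside repeats only, 63 were named (15.9%, interval 12.6 to 19.8), against 16.3%. The interval for scores of 50 or more lies above the share of all genes, and the other 4 intervals include it. Of these 20 genes, 7 were among the 9 genes of a stretch of chromosome 4, the array. Without these 9 genes the share was 13 of 388 (3.35%, interval 1.97 to 5.65). The stretch was picked from the peaks themselves, so leaving out its genes, all with a peak, is no test of the excess. The score is the authors' own whole number per peak, on a scale that the list does not explain.

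Genes in tandem runs were named less often than the other Zfp genes by count, a difference that was not tested. A run was counted where at least 3 Zfp genes had starts no more than 200 kb apart in the gene table. Such runs numbered 30 and held 195 genes, of which 29 had a peak (14.9%, interval 10.6 to 20.5). Of the other 202 Zfp genes, 53 had a peak (26.2%, interval 20.7 to 32.7). These intervals do not overlap. By this rule only 6 of the 9 array genes stood in runs, and Zfp600, Zfp980 and Zfp987, all with peaks, counted among the others. Counting all 9 as tandem would bring the shares closer together, but those shares and their intervals were not computed. The lack of overlap is thus shown only for the runs as counted here. The intervals overlap with a least run of 5 genes, at 16.2% (11.1 to 23.0) in runs and 23.3% (18.5 to 28.9) for the others. They also overlap with starts up to 100 kb apart, at 14.8% (10.2 to 20.9) and 25% (19.8 to 31.00), and with starts up to 500 kb apart, at 16.7% (upper end of the interval 21.99%) and 26.6% (lower end 20.3%). The median gene length was 16072 bp in runs and 19567.5 bp for the others. Zfp genes with a peak had a median length of 25780 bp, and those without one 16043 bp. Over all protein-coding genes, those with a peak had a median of 37983 bp, so longer genes were named more often in the list as a whole too.

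**Figure D1:**
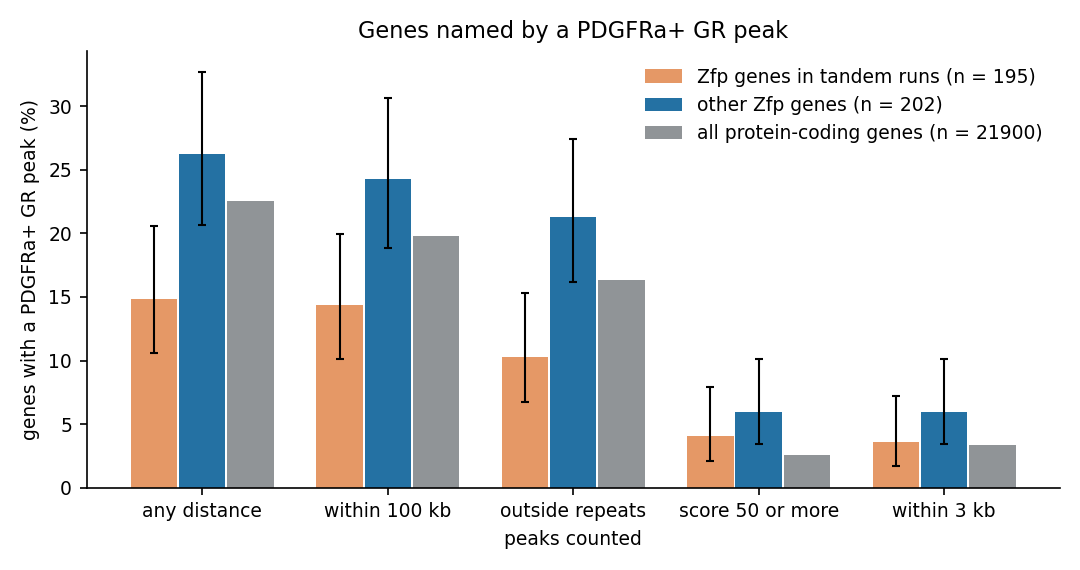
Share of genes named by at least 1 PDGFRa+ GR peak (vertical axis, %) under 5 ways of counting peaks (horizontal axis), for Zfp genes in tandem runs, other Zfp genes and all protein-coding genes; bars start at 0 and lines are 95% Wilson intervals for the Zfp sets. At any distance the bars stand at 14.9%, 26.2% and 22.5%.

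In 15 of the 30 runs at least 1 gene had a peak, and in the other 15 none had. The run of 23 genes on chromosome 13 had 6 genes with a peak (26.1%, interval 12.5 to 46.5), near the 22.5% of all genes. The run of 9 genes on chromosome 4 had 5 (55.6%, interval 26.7 to 81.1), all of them array genes. A run of 18 genes on chromosome 17 had 3 (16.7%, interval 5.84 to 39.2), Zfp820 (score 37), Zfp943 (33) and Zfp994 (41). These runs were picked as those with the most genes with a peak, so their shares are a description and show no excess. The runs on chromosome 7 that hold 15 and 10 genes had 0 each. The 6 genes of the chromosome 13 run had 1 peak each, with scores of 41 for Zfp748, 40 for Zfp759, 33 for Zfp457 and Zfp712, 31 for Zfp953 and 25 for Zfp708. Zfp708 is a KRAB protein known in mouse to silence an endogenous retroviral repeat, and its peak lay 7755 bp from the start site. Those of Zfp953 and Zfp457 lay at -107 and 521 bp, where negative values are upstream.

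The densest stretch of Zfp peaks lay on chromosome 4. Between 145278234 and 147161018, as deposited and on a build other than GRCm38, 53 peaks stood in 1882785 bp, or 28.1 per Mb. Of these, 41 were named for 9 Zfp genes, or 25.6% of the 160 peaks from 10.98% of the members. The stretch was found from the peaks themselves, so its density is a description. Its middle 1 Mb bin held 38 peaks, which ranked 3 among 2440 bins with a peak, in which the median was 4 and the 95th percentile 8. The remaining 12 peaks were named for Rex2 (6 peaks), 1700095A21Rik (2 peaks) and 4 other genes with 1 each. These were set apart by name only, and whether they too are zinc finger genes was not checked. By the gene table, 14 Zfp genes lie between the outermost of the 9, so 5 of them were named by no peak.

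Zfp982 and Zfp985 were each named by 10 peaks and Zfp600 by 9, the most of any member. The 10 scores of Zfp982 ran from 26 to 58, the 10 of Zfp985 from 22 to 53 and the 9 of Zfp600 from 26 to 58. Zfp980 had 3 peaks with scores of 87, 44 and 29, and the strongest, at 145292224 to 145292382 as deposited, was annotated to exon 5 of 5. Zfp979 had 1 peak with a score of 80, in an intron and within the retroviral repeat RMER17A. Zfp534 had 1 peak with a score of 57, at -38226 bp. Zfp984 had 2 peaks with scores of 52 and 39, Zfp987 2 with 38 and 33, and Zfp981 3 with 38, 33 and 21. Scores of 50 or more thus stood at 7 of the 9 genes.

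The name of a peak and the transcript it lay in differed in this stretch. An intron of Zfp982, intron 1 of 2, held 17 peaks over 253959 bp, and 10 of them were named for Zfp982 and 7 for Zfp985, whose start site was nearer. In the gene table the whole of Zfp982 is 72951 bp long. The order of the 9 genes also differed, since Zfp981 stood at place 2 by its first peak in the list and at place 4 in the gene table. The layout of the stretch thus differed between the build of the list and the gene table, and which gene a peak there belongs to is uncertain. How reads that match several places were treated is not given in the sources used here.

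**Figure D2:**
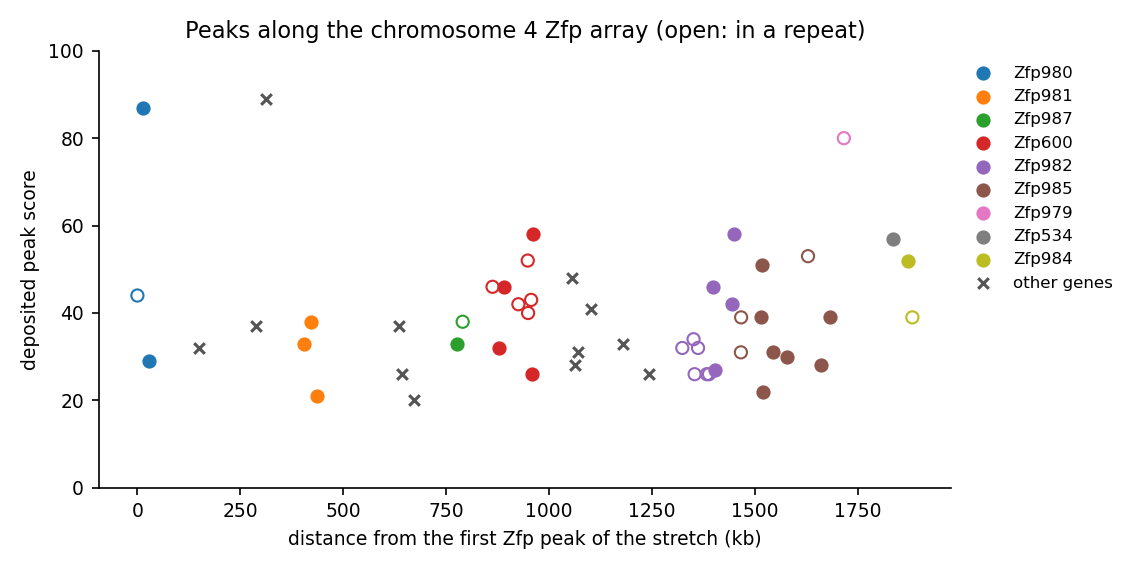
Deposited score (vertical axis) of the 53 peaks in the chromosome 4 stretch against distance from the first Zfp peak (horizontal axis, kb). Colours are the 9 Zfp genes, open circles are peaks in a repeat, and crosses are the 12 peaks named for other genes; Zfp600, Zfp982 and Zfp985 have the most points, with peaks of Zfp979, Zfp534 and Zfp984 after them, and the cross at 89 is 1700095A21Rik.

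Promoters of the array members were more alike than those of members pooled over the other runs or over single genes. Single genes here are all members outside the array and outside the runs, so some may have another Zfp gene close by. RefSeq promoter windows (GRCm38.p6, 250 bases before to 50 after the start) were found for 69 of the 82 members and for all 9 of the array. Over the 36 pairs of array genes, the median identity of the best-matching pair of listed starts was 76.9%, from 58.2 to 94.8%. For the 22 members of the other runs the median over 231 pairs was 50.6% (highest 76.1%). For 38 single genes over 703 pairs it was 49.6% (highest 61.7%). The pairs of the other runs mix genes of different runs and chromosomes, and likeness within each of those runs was not computed. The 3 promoters below show the likeness within the array. Capitals mark bases of Zfp979 and Zfp980 that differ from Zfp600 or are extra to it in a global alignment. Zfp600 lies at chr4:146156577-146156876 (plus strand), Zfp979 at chr4:147642459-147642758 (minus strand) and Zfp980 at chr4:145670447-145670746 (plus strand), all in GRCm38.p6.
Zfp600: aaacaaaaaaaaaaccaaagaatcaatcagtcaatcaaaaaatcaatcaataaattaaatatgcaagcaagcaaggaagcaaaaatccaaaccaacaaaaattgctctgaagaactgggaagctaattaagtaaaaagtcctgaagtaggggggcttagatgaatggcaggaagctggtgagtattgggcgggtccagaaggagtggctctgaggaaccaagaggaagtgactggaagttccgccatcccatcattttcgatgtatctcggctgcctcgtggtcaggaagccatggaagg
Zfp979: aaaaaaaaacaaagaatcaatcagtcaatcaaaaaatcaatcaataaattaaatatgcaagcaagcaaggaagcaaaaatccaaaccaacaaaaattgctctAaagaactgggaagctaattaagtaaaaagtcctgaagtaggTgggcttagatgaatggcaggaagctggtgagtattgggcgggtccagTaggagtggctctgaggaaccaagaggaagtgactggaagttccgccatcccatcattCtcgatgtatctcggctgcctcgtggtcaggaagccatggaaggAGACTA
Zfp980: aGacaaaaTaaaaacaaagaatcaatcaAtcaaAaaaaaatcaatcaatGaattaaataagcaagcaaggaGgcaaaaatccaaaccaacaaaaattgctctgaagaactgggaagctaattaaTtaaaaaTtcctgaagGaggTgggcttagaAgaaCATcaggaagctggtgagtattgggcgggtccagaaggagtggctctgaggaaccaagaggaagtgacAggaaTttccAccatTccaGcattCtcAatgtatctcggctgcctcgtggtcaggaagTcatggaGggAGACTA
Zfp979 was 94.8% identical to Zfp600 and Zfp980 88.6%. None of the 41 array peaks was annotated to a promoter, which allows a share of up to 7.32%, and 1 lay within 3 kb of a start site, so these windows are shown for the likeness of the copies and not as sites of peaks.

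Array peaks also differed from the rest of the list in width and score. The least width, 146 bp, was found in 10 of the 41 array peaks (24.4%, interval 13.8 to 39.3), against 72.1% (71.2 to 72.9) of the 10242 peaks not named for a Zfp gene. The 5 most frequent scores of the list are 25, 26, 33, 41 and 49. They were held by 6 of the 41 array peaks (14.6%, interval 6.88 to 28.4), against 73.8% (72.9 to 74.6) in the rest of the list. The 12 peaks of other genes in the stretch were also low at the frequent scores (4 of 12, 33.3%, interval 13.8 to 60.9), but not at the least width (8 of 12, 66.7%, interval 39.1 to 86.2). In other 1 Mb bins with at least 10 peaks these shares were 50.1% for the least width and 50.5% for the frequent scores, over 776 peaks. Scores of 50 or more were held by 9 of the 41 array peaks (21.95%), against 22.4% in those bins and 8.81% in the rest. The median score was 39 in the array and 40 in those bins. In the height of its scores the array was thus close to those bins. Introns held 63.4% of the array peaks (48.1 to 76.4), against 37.2% in the rest. Of these 26 intronic peaks 17 lay in the Zfp982 intron, and without it 9 of 24 were intronic (37.5%, interval 21.2 to 57.3), close to the rest. LTR elements, the remains of retroviruses, held 10 of the 41 (24.4%, interval 13.8 to 39.3), of which 8 were of the ERVK family, against 10.1% (9.57 to 10.7) in the rest. These are counts within 1 library and were not tested.

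The other 119 Zfp peaks were named for 23 genes in other tandem runs (28 peaks) and 50 single genes (91 peaks). Single means only outside the runs as counted here, and a wider run rule would move some of these genes. Outside the array, Zfp peaks lay closer to the rest of the list in width and score. Single genes had 61.5% intergenic peaks (51.3 to 70.9) and genes of the other runs 35.7% (20.7 to 54.2), against 56.4% (55.4 to 57.4) in the rest. Repeats held 29.7% of the peaks of single genes (21.3 to 39.7) and 46.4% of those of other runs (29.5 to 64.2), against 38.1% (37.2 to 39.0). LINE elements held 10 of the 28 peaks of other runs (35.7%, interval 20.7 to 54.2), against 16.9% (16.2 to 17.6), and LTR elements held 0 of these 28, which allows a share of up to 10.7%. Of all 160 Zfp peaks, 11.9% lay within 3 kb of a start site (7.74 to 17.8), against 8.79% (8.25 to 9.35). The median score was 37 over all Zfp peaks, 39 in the array, 37 in other runs and 33 in single genes, against 33 in the rest. Satellite repeats held 0 of the 160 Zfp peaks, which allows a share of up to 1.88%, against 39 peaks (0.381%) in the rest.

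**Figure D3:**
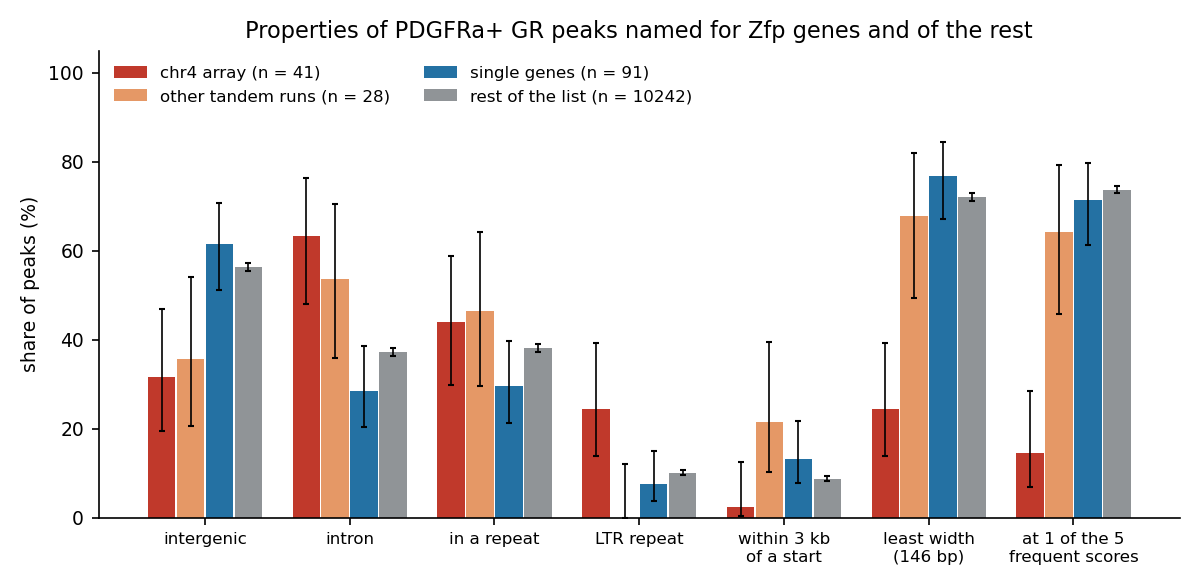
Share of peaks (vertical axis, %) with each property (horizontal axis) for the chromosome 4 array, other tandem runs, single Zfp genes and the 10242 peaks of the rest of the list; bars start at 0 and lines are 95% Wilson intervals. Array peaks stand apart at the least width (24.4% against 72.1%) and at the 5 frequent scores (14.6% against 73.8%).

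Among genes that act in fat cells, Zfp521 had the highest score. Zfp521, which restrains adipogenic commitment in mouse progenitors, had 1 peak with a score of 58 in intron 2 of 7, 7171 bp from its start site (chromosome 18, 14123999 to 14124144 as deposited). Zfp423, a determinant of the preadipocyte state, had 2 peaks, 1 with a score of 41 at -14016 bp and 1 with 26 at 23491 bp in intron 1 of 7. Both Zfp423 peaks lay in a SINE element, B2_Mm2. Zfp407, which supports PPARg target genes in adipocytes, had a peak with a score of 42 in intron 1 of 8, 1060 bp from the start. Zfp217, a transcriptional regulator that promotes adipogenesis, had a score of 41 at -12971 bp. Zfp467, Zfp516, Zfp395, Zfp638 and Zfp30 had no peak, so 4 of these 9 adipose regulators were named by a peak (44.4%), against 22.5% of all genes. Outside repeats it was 3 of 9 (33.3%), against 16.3%. The list was drawn up with earlier results of these data known, and a count of 4 is small. The 4 genes are long, at 285737 bp for Zfp521, 300244 bp for Zfp423, 381839 bp for Zfp407 and 43035 bp for Zfp217. The median over all protein-coding genes was 17146 bp. Longer genes were named more often in the list, and these shares take no account of length.

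The mRNA decay genes Zfp36l1 and Zfp36l2 had 2 peaks each, none with a score above 33. Zfp36l1 had a peak with a score of 28 at 469 bp, in intron 1 of 1, and one with 33 at 68864 bp. Zfp36l2 had peaks with scores of 33 at 5651 bp and 26 at 34779 bp. Zfp36 itself, the gene of tristetraprolin, had none. Zfp36l3, a rodent-specific member known from placenta, had the highest score of all Zfp peaks, 118, on chromosome X at 51086347 as deposited. That peak was annotated to the transcription end of Xlr, at -6854 bp from Zfp36l3. The other peak of Zfp36l3, scoring 32, was in the last intron of another Xlr transcript. The highest-scoring Zfp peak was therefore annotated to a different gene from the one that named it.

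Of the genes for imprinting and retroelement silencing, 1 of 7 had a peak. That gene was Zfp708, with a score of 25. Zfp57 and Zfp445, which protect imprinted methylation, had none, and neither had Zfp568, Zfp809, Zfp819 or Zfp932. Among 22 cofactors through which KRAB proteins act, 8 had a peak (36.4%), against 22.5% of all genes. Outside repeats 4 of the 22 had one (18.2%), against 16.3% of all genes. Atf7ip, a partner of Setdb1, had scores of 58, in a LINE element, and 26, and Cbx5, which encodes HP1 alpha, had 49 at 969 bp from the start. The maintenance DNA methyltransferase Dnmt1 had 38 at 1208 bp, and Setdb1 had 26 at -2140 bp, within a retroviral repeat. Dnmt3b, Hdac2 and Cbx3, all in repeats, and Atf7ip2 had scores from 28 to 33. Trim28, to which KRAB domains bind, had no peak.

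Among developmental regulators, Zfp804a and Zfp462 had 5 distant peaks each. Zfp804a, whose human counterpart has been linked to schizophrenia, had 5 peaks with scores of 53, 49, 45, 41 and 31, and all lay upstream, from -699133 to -50596 bp. Zfp462, needed for neural development, had 5 with scores of 49, 40, 28, 26 and 26, all upstream, from -419070 to -136162 bp. Zfp608, a regulator studied in thymocytes, had 6 with scores of 49, 41, 33, 30, 26 and 26, from -368579 to 137891 bp. Its nearest peak, with a score of 30, lay 1316 bp into the gene. Zfp536, which restrains neuronal differentiation, had scores of 49, 33 and 26 from 51192 to 307856 bp. Zfp281, a pluripotency factor of embryonic stem cells, had 2 peaks with scores of 33 and 25, at -70932 and -45941 bp. These 4 listed regulators, Zfp804a, Zfp462, Zfp536 and Zfp281, were the members with a peak among 15 (26.7%), close to the 22.5% of all genes. Distances of this size say which start site was nearest and not which gene the site acts on.

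Other members with 3 or more peaks were Zfp644, Zfp960, Zfp619, Zfp326 and Zfp868. Zfp644, whose human counterpart recruits histone methyltransferases of the G9a and GLP pair, had 5 with scores of 58, 33, 33, 26 and 20. Zfp960 had 5 peaks with scores of 49, 41, 33, 33 and 26, all upstream from -523772 to -52007 bp. Zfp868 had a score of 96 in a SINE element and further peaks of 41 and 26. Zfp326, a subunit of the DBIRD complex that links splicing to elongation, had scores of 41, 33 and 26, and Zfp619 had 41, 41 and 25. Outside repeats, scores of 58 were also found at Zfp839, 4264 bp into the gene, and at Zfp474, at -15118 bp. In all, 14 members had at least 3 peaks and together held 73 of the 160. By contrast, 49 members had 1 peak, with scores from 20 to 80 and a median of 41, and 19 had 2. The median was 1 peak per gene for members and for the rest of the list. Genes with at least 3 peaks were not counted over the rest.

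**Figure D4:**
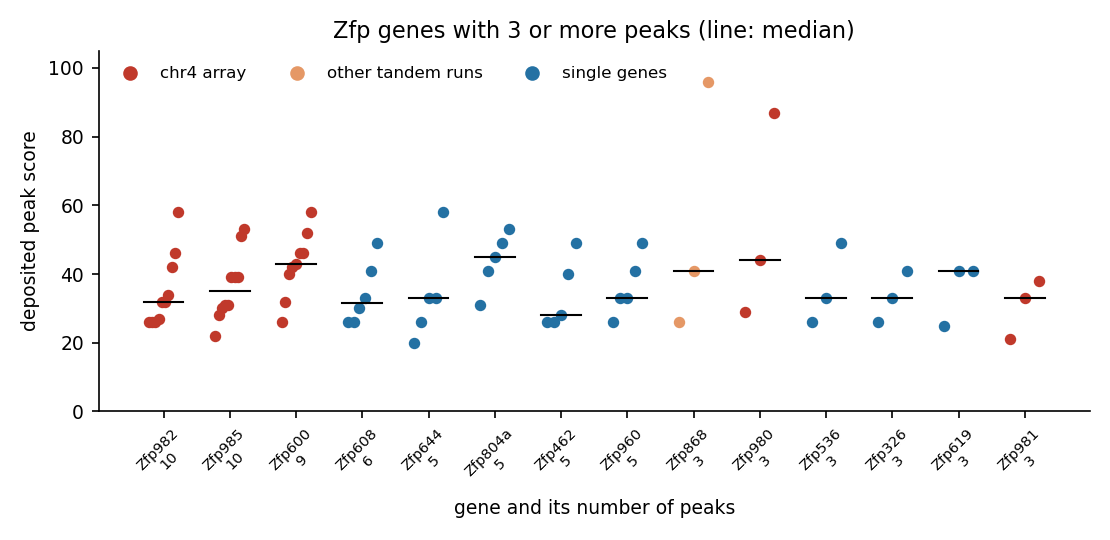
Deposited scores (vertical axis) of every peak of the 14 Zfp genes with at least 3 peaks (horizontal axis, with the number of peaks); points are peaks, lines are medians and colours are the class of the gene. The chromosome 4 genes Zfp982, Zfp985 and Zfp600 have 10, 10 and 9 peaks, and the highest points are 96 for Zfp868 and 87 for Zfp980.

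At start sites, 12 members had a peak within 1 kb and 19 within 3 kb. Of all Zfp peaks 7.50% lay within 1 kb (interval 4.34 to 12.7), against 4.30% (3.92 to 4.71) in the rest of the list. The list annotated 5 of the members' peaks to a promoter. They lay at -66 bp of Zfp788 (score 40), 93 bp of Zfp106 (31), -107 bp of Zfp953 (31), -571 bp of Zfp385b (26) and -632 bp of Zfp764 (41). Zfp106 binds RNA and is needed for neuromuscular function in mice, and the human counterpart of Zfp764 has been described as a cofactor of GR. Zfp639 had a score of 49 at 301 bp, which the list's detailed annotation marks as CpG. Zfp981 stood at 321 bp with 33, Zfp777 at 505 bp with 41, Zfp574 at 591 bp in its 5' UTR with 41 and Zfp326 at 803 bp with 41. Farther out, Zfp936 had 56 at 1423 bp in a B2 SINE, Zfp239 had 41 at 2786 bp, Zfp563 had 50 at 2842 bp, Zfp820 had 37 at 2935 bp and Zfp951 had 58 at -2863 bp. Scores of the peak nearest to the start ran from 26 to 58 among the 19, so none of the Zfp scores above 58 lay within 3 kb.

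**Figure D5:**
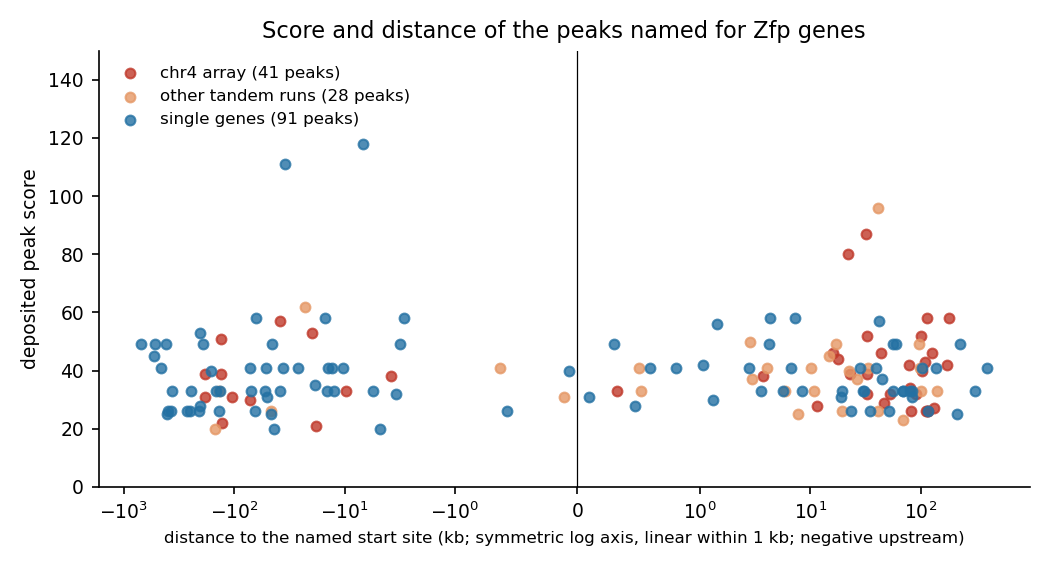
Deposited score (vertical axis) of the 160 Zfp peaks against distance to the named start site (horizontal axis, kb, symmetric log axis that is linear within 1 kb, negative upstream), coloured by class. Within 3 kb the scores run from 26 to 58, and the highest point is the peak of Zfp36l3 at 118.

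The promoter windows were searched for the GR recognition sequence. The core searched was ACANNNTGT, and the fuller palindrome was this core with a G before it and a C after it, each set off by 1 free base. Both strands were searched. The palindrome was found in 0 of 86 windows of the 69 members, which allows a share of up to 3.49%, against 2 of 315 (0.635%) windows of Zfp genes with no peak and 0.475% of all 32851 windows. The core, which lies within every palindrome, was found in 7 of 86 (8.14%, interval 3.999 to 15.9), against 4.44% and 6.85%. In the 22 windows of members with a peak within 3 kb it was found in 4 (18.2%, interval 7.31 to 38.5), above the 6.85% of all windows by count. These 4 windows belonged to Zfp239 and Zfp951 alone, of 16 such genes, and the windows of Zfp951 overlap. They are thus not independent, which the interval does not take into account. The hexamer AGAACA, a single arm of the element that the other motifs need not contain, was found in 7 of 86 (8.14%, interval 3.999 to 15.9), against 16.5% and 18.97%. By count the hexamer was thus less frequent in the windows of members than in both other sets, a difference that was not tested. A match is a string of letters and not a binding site.

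The promoters of Zfp953, Zfp764 and Zfp951 illustrate these windows. Zfp953 is shown because its peak centre fell inside the window as the list measures it, as did that of Zfp788 at -66 bp. The capital marks the start-site base of Zfp953 (chr13:67360523-67360822, minus strand, GRCm38.p6). This window of Zfp953 holds none of the 3 motifs.
Zfp953: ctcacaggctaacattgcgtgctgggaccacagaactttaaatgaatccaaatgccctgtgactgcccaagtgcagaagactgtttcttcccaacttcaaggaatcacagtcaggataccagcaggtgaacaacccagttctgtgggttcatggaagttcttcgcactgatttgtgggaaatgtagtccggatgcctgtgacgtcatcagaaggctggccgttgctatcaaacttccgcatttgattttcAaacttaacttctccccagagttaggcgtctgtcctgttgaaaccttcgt
Zfp764 is shown for the hexamer, in capitals, which reads TGTTCT on this strand (chr7:127406773-127407072, minus strand, GRCm38.p6). Its peak at -632 bp lay upstream of the window.
Zfp764: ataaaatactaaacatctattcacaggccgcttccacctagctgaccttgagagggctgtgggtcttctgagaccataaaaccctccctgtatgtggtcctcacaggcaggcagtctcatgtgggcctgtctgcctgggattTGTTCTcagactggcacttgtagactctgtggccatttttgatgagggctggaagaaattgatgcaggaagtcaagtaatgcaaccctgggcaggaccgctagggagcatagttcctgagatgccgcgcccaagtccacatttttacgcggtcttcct
Zfp951 is shown for the core ACANNNTGT, in capitals (chr5:104859978-104860277, minus strand, GRCm38.p6). It is 1 of 2 listed starts, and the peak of Zfp951, at -2863 bp, lay outside the window.
Zfp951: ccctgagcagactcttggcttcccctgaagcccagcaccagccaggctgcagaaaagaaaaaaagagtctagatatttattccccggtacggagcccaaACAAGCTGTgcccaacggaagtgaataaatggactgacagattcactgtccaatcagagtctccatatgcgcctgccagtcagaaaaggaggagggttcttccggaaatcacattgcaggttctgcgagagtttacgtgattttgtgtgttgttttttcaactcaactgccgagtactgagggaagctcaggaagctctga

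Not every Zfp peak lay within the gene that named it. Of the 160 peaks, 81 were annotated to a transcript, and 17 of these 81 lay in a gene other than the one named. That share was not counted over the rest of the list. The 17 included the 7 peaks of Zfp985 in Zfp982 and the 2 of Zfp36l3 in Xlr. Zfp354c (score 49) was named for a peak in intron 3 of 21 of Adamts2, Zfp950 (49) for one in intron 12 of 15 of Grk5, and Zfp523 (41) for one in intron 17 of 21 of Scube3. Zfp622 (33) was named for a peak in Retreg1 and Zfp120 (33) for one in Syndig1. Among peaks in repeats, Zfp825 had a score of 111 in a simple repeat of the unit CACAG and Zfp709 had 62 in a LINE element. Of the 82 members, 19 had peaks in repeats only and 63 had a peak outside repeats. Over all protein-coding genes, 4927 had a peak and 3566 had one outside repeats.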

How the data were processed

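GR chromatin immunoprecipitation was analysed in 2 deposited tables. Per the submitters' processing notes the tools were FastQC, Bowtie2, MACS2, SAMtools and bedtools 2.17.0 with build mm10; their settings, and whether inputs were used, are not stated. The deposited peak score of the PDGFRa+ list is a whole number on an unexplained scale, and the deposited signal of the CD137+ table has an unexplained unit. Distances, annotation classes and repeats are those of the authors. Implied start sites lay within 1 kb of the GRCm38.p6 gene table for 1 of 160 Zfp peaks (median offset 168544 bp), so list coordinates are printed as deposited on another build. The mm10 of the notes is the same assembly as GRCm38, so the stated build and the coordinates of the PDGFRa+ list conflict. All 82 members matched the gene table by Entrez identifier. Library depth is unknown. Counts, medians and 95% Wilson intervals were computed with Python 3.11.15, pandas 2.3.3, SciPy 1.17.1 and Biopython 1.88. The search for runs, the search for motifs and the promoter identity were checked on simulated data. With 1 library per cell type no test was made. The limit for a count of 0 is 3 counts. Named genes were the 10 highest scores outside repeats, members with a peak within 3 kb or with at least 3 peaks, members of 4 functional lists, and the richest runs; other names were chosen after their values were seen. Members and lists were chosen with earlier results of these data known. Promoter identity used global alignment (match 1, mismatch -1, gap opening -2, extension -0.5).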

Additional observations from a re-analysis of the deposited data

How the results depend on the processing

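Limiting the list to peaks with a score of 50 or more left 20 of the 82 Zfp genes with a peak, and narrowing the distance limit to 1 kb kept 7.50% of the Zfp peaks, against 11.9% within 3 kb; both follow from counting fewer peaks. The number of Zfp genes with a peak was 77 within 100 kb, 63 without repeat peaks and 73 without the chromosome 4 stretch, the last setting chosen after the data were seen, as were the shares without the array genes, without the Zfp982 intron and, for the gene lists, outside repeats. Genes in tandem runs with a peak numbered from 23 to 40 over the other run rules and without that stretch, against 29. The intergenic share ran from 42.5 to 55.5%, the share in repeats from 33.6 to 40.9% and the median score from 33 to 41. No paired analysis was possible because each group has 1 sample. Depth is unknown, so an absent peak is not shown to be an unbound site.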

Other observations

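A further 19 genes carry a Zfp number only as an alias and another symbol in the list, and had 24 peaks; they are not among the 82 members. Neighbouring Zfp peaks stood under 1 kb apart in 4 places, named for Zfp600, Zfp985, Zfp644 and Zfp868, with gaps of 642, 351, 165 and 169 bp. At Zfp644 the 2 peaks of such a pair scored 58 and 26, and at Zfp868 they scored 96 and 26.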
